A study of Homo sapiens with 18 samples.

Results

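The integrin and laminin chain genes were every gene of the count tables whose symbol begins ITGA followed by a digit or by V, E, L, M, X or D, together with the numbered ITGB, LAMA, LAMB and LAMC genes. The rule gave 38 of the 23106 genes counted, namely 18 integrin α chains, 8 integrin β chains, 5 laminin α chains, 4 laminin β chains and 3 laminin γ chains. PolyA+ RNA was sequenced from 3 human cell lines, each kept in normoxia or in hypoxia, with 3 samples in each of the 6 groups (18 in all). HKC-8 is a line of kidney proximal tubule cells and HepG2 is a liver cancer line. RCC4 is a renal carcinoma line that here carried stably transfected wild-type VHL, the gene for the protein that marks HIF for degradation, in normoxic and hypoxic samples alike. All cultures were kept in DMEM with 10% fetal bovine serum. The labels put hypoxic HKC-8 and HepG2 cells at 0.5% oxygen for 16 h and hypoxic RCC4 cells at 1.0% oxygen for 24 h, whereas the study's text gives 1 condition for the lines together. Which applied to RCC4 was not settled here. For hypoxic HKC-8 the titles read 0.1% instead. No label says that the 3 samples of a group came from separate cultures, so p-values measure only the spread between these samples, which may be technical.

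Integrins are receptors of an α and a β chain that span the plasma membrane and tie the actin cytoskeleton to the extracellular matrix or to other cells. Laminins are secreted trimers of an α, a β and a γ chain that build the basement membrane under epithelia, where integrins with the α3 or α6 chain bind them. The chains a cell makes set which ligands it can hold: ITGA5 with ITGB1 binds fibronectin, ITGAV with ITGB3, ITGB5, ITGB6 or ITGB8 binds RGD ligands such as vitronectin or latent TGF-β, and ITGB2 pairs with the leukocyte chains ITGAL, ITGAM, ITGAX and ITGAD. ITGB1 is shared by many α chains, while ITGB4 pairs with ITGA6 in hemidesmosomes.

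Total counts lay between 40915980 and 97984260 per sample and were higher in every HKC-8 sample than in the other lines. Levels are given as CPM, which are counts divided by the library size after TMM scaling over all 18 samples, and 3 counts in a sample were worth between 0.0307 and 0.0776 CPM. All 10 hepatocyte markers were at or above 1 CPM in HepG2, whereas 4 of 11 kidney tubule markers in HKC-8 and 6 of 11 in RCC4 reached that level. In HepG2, 5 of those 11 kidney markers reached it too, so the kidney list did not set HKC-8 apart from HepG2. The kidney markers summed to 161 to 202 CPM in normoxic HKC-8, 725 to 755 CPM in RCC4 and 306 to 321 CPM in HepG2. Of 10 genes known as hypoxia-induced, 10 rose in HKC-8, 10 rose in HepG2, and all 8 that could be tested rose in RCC4. The summed level of 6 fibroblast markers was also higher in hypoxia. In HKC-8 it spanned 12.3 to 20.7 CPM in normoxia and 22.7 to 26.6 CPM in hypoxia. The spans were 43.7 to 49.3 and 62.9 to 66.2 CPM in RCC4, and 26.7 to 29.8 and 62.9 to 71.4 CPM in HepG2. Few of these markers could be tested: 3 in HKC-8 with 1 called higher, 2 in RCC4 with 1, and 2 in HepG2 with 2. The part of these markers in the results was not tested. In bulk RNA, fewer cells expressing a gene and less RNA of it per cell cannot be told apart.

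Promoter windows are shown for ITGA5 and ITGB8, the chains whose called hypoxic change reached 2-fold in a line and whose window, from 250 bases before to 50 bases after the start site, held a core of the element that HIF binds. The cores searched were ACGTG and GCGTG on both strands. The sequences are from RefSeq on GRCh38.p14, written 5′ to 3′ along the gene's own strand, with each core in capitals. ITGA5 lies on the minus strand at chr12:54419217-54419516 and ITGB8 on the plus strand at chr7:20330650-20330949.
ITGA5: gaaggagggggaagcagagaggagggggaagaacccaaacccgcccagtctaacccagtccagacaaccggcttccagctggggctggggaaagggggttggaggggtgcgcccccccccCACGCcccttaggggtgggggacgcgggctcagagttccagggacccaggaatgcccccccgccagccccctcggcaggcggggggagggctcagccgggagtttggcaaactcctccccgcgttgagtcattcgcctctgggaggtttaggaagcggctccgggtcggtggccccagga
ITGB8: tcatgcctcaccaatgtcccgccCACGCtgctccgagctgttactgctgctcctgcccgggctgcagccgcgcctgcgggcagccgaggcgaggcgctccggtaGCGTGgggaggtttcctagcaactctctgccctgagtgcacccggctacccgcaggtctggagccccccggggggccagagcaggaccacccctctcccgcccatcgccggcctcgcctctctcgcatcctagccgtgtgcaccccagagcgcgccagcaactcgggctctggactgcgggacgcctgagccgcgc
The ITGA5 window held 1 GCGTG core, read on the opposite strand, 130 bases before the start site. The ITGB8 window held 2, at 227 bases before the start site on the opposite strand and at 146 bases before it on the coding strand. Either core was present in 48.4% of all 35116 RefSeq promoter windows and in 12 of the 26 chain genes that had a window (46.2%). The ITGAM window held neither core, and windows of ITGAL, ITGAX and ITGB2 were not analysed here.

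The chains that each line expressed before hypoxia were described first. Of the 38 genes, 32 had enough counts to be tested for hypoxia in at least 1 line and 21 in all 3. The remaining 6, ITGA8, ITGA9, ITGA11, ITGAD, LAMA4 and LAMB4, stayed at or below 17 counts in every sample. ITGAD, a leukocyte α chain, had 1 count in 1 of 18 samples.

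**Figure D1:**
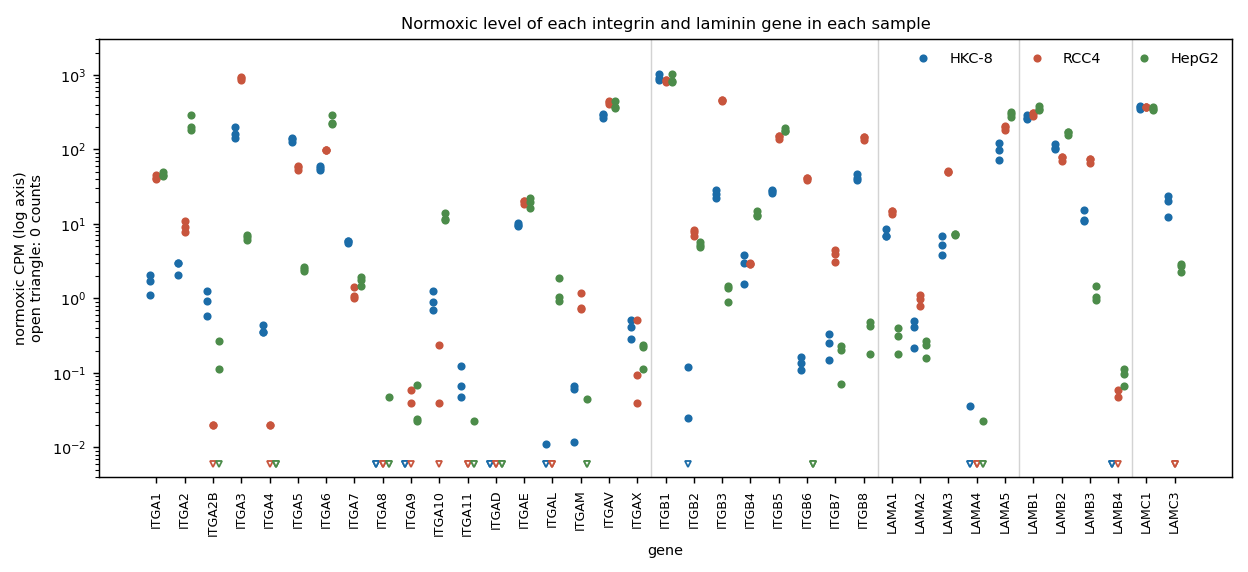
Normoxic CPM (log axis) of 37 chain genes, 1 point per sample and 3 samples per line, with triangles for samples at 0 counts. ITGB1, ITGAV, LAMB1 and LAMC1 lie close together in the 3 lines, whereas ITGA5, ITGB3, ITGB8 and LAMB3 are spread over more than 10-fold.

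Chains were compared with each other per kilobase of exon, as a share of the summed CPM per kb of their class. ITGB1 took 85.0% ± 1.75 (SD, n = 3) of the integrin β pool in normoxic HKC-8 cells and 66.1% ± 1.87 in HepG2 cells. In RCC4 cells ITGB3, the vitronectin receptor chain, took 40.6% ± 0.227 and ITGB1 34.4% ± 0.431. Dividing by the longest transcript in place of all exons put ITGB1 (51.6%) over ITGB3 (27.0%) in RCC4, so the order of those chains depended on the length used.

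For the α chains, normoxic HKC-8 had ITGA5 (29.9% ± 1.08), ITGA3 (27.8% ± 3.67) and ITGAV (23.9% ± 2.27) at similar shares. RCC4 was dominated by ITGA3, a laminin-binding partner of ITGB1, at 64.4% ± 1.28. HepG2 had ITGA6, another laminin-binding chain, at 39.0% ± 0.854, ITGA2, a collagen-binding chain, at 29.7% ± 2.91, and ITGAV at 21.7% ± 1.03. By the longest transcript ITGAV led in HKC-8 (33.0%) and in HepG2 (37.0%).

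The laminin pools were each led by a few chains. LAMA5 took 88.5% ± 3.43 of the laminin α pool in HKC-8, against 75.6% ± 1.08 for RCC4 and 97.5% ± 0.223 for HepG2, and LAMC1 took 95.3% ± 1.24, 77.0% ± 1.05 and 99.3% ± 0.0797 of the γ pool. In RCC4 the chains LAMA3 and LAMB3, which belong to the laminin of epithelial anchoring filaments, held 19.1% and 36.2% of their pools. The corresponding shares in HepG2 were 2.38% and 0.566%. LAMB2 and LAMB1 held similar shares in HKC-8 (47.8% and 44.0%) and in HepG2 (55.7% and 43.7%), with LAMB1 first in every line by the longest transcript.

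**Figure D2:**
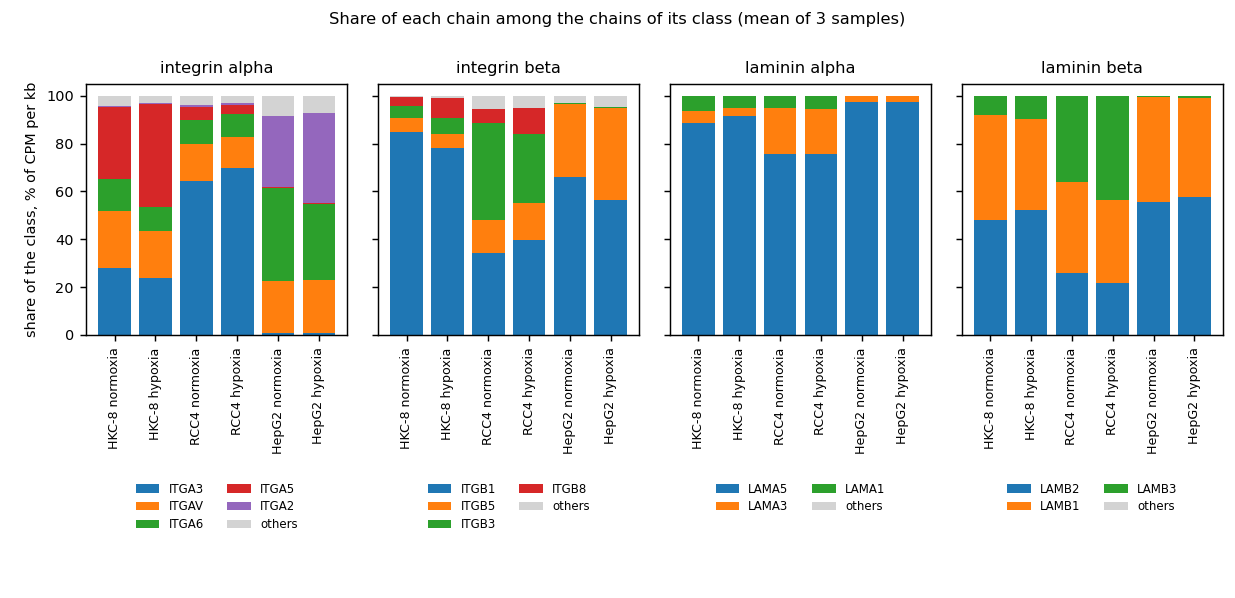
Share of each chain in the summed CPM per kb of exon of its class (%, mean of 3 samples) for the integrin and laminin α and β chains in the 6 groups, with minor chains pooled as others. ITGB1 went from 85.0% to 78.1% of the β pool under hypoxia in HKC-8, ITGB3 from 40.6% to 28.8% in RCC4, and ITGB5 from 30.6% to 38.4% in HepG2.

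Normoxic levels between lines were tested in a single edgeR fit of the 9 normoxic samples, calling a gene at an adjusted p under 0.05 and at least a 2-fold difference. RCC4 exceeded HKC-8 for 16 of 32 tested chains and lay below it for 6, against 23.2% of all genes called in each direction. HepG2 was above HKC-8 for 10 and below for 12 (background 26.3% higher and 20.8% lower), and above RCC4 for 8 and below for 12 (28.1% and 21.5%). Depth and any preparation batch go with the cell line and cannot be told apart from it.

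The β chains separated the lines. ITGB3 stood at 22.1, 28.5 and 25.6 CPM in HKC-8, 467, 450.4 and 464 CPM in RCC4 and 1.36, 1.46 and 0.883 CPM in HepG2. None of the lines overlapped, and RCC4 exceeded HKC-8 18.2-fold (log2 difference 4.19 ± 0.11 SE, edgeR adjusted p = 5.87e-13). ITGB8, which with ITGAV activates latent TGF-β, stood at 41.0, 38.4 and 46.4 CPM in HKC-8, 149, 133 and 149 CPM in RCC4 and 0.431, 0.179 and 0.477 CPM in HepG2. These lines did not overlap either.

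ITGB6, the epithelial partner of ITGAV, was at 41.5, 39.4 and 41.5 CPM in RCC4, at 0.108, 0.136 and 0.165 CPM in HKC-8, and at 0 counts in all 3 HepG2 samples. Against a floor of 3 counts over the HepG2 group, RCC4 was at least 1779-fold higher; such floors cover counting error only. ITGB4, the hemidesmosome chain, was instead highest in HepG2, at 14.9, 12.8 and 13.2 CPM, and 4.65-fold above RCC4 (log2 difference 2.22 ± 0.24, edgeR adjusted p = 1.04e-06).

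Among α chains, HepG2 had little of the fibronectin receptor chain. ITGA5 was at 127, 144 and 137 CPM in HKC-8, 58.1, 59.4 and 53.7 CPM in RCC4, and 2.33, 2.66 and 2.48 CPM in HepG2. The HepG2 level was 53.7-fold below HKC-8 (log2 difference -5.75 ± 0.10, edgeR adjusted p = 4.32e-15). ITGA3 reached 919, 951 and 866 CPM in RCC4, against 162, 199 and 144 CPM in HKC-8 and 7.09, 6.71 and 6.06 CPM in HepG2. Of the collagen-binding chains, ITGA2 and ITGA10 ran the other way. ITGA1 did not, with normoxic means of 42.35 CPM in RCC4, 46.63 CPM in HepG2 and 1.634 CPM in HKC-8, and ITGA11 had too few counts to test. ITGA2 was at 181, 199.7 and 287 CPM in HepG2 but at 2.07 to 11.1 CPM in the normoxic kidney lines, and ITGA10 was at 11.3 to 13.9 CPM in normoxic HepG2 and at most 1.24 CPM in any sample of the kidney lines. ITGAV, the common partner of several β chains, lay at 264 to 448 CPM over the 3 lines.

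Among laminins, LAMB3 was at 74.5, 74.4 and 66.0 CPM in RCC4, 11.2, 15.5 and 10.8 CPM in HKC-8, and 1.04, 0.962 and 1.46 CPM in HepG2. None of the lines overlapped, and RCC4 was 5.78-fold above HKC-8 (log2 difference 2.53 ± 0.14, edgeR adjusted p = 6.86e-10). LAMC3, a γ chain, was highest in HKC-8 instead, with 23.7, 20.6 and 12.4 CPM in HKC-8, 2.27, 2.75 and 2.89 CPM in HepG2, and 0 counts in all 6 RCC4 samples, normoxic and hypoxic. HKC-8 was thus at least 906-fold above RCC4, taking 3 counts over the normoxic RCC4 group as the floor. LAMA1, the α chain of early epithelial basement membranes, was at 6.80 to 8.64 CPM in HKC-8, 13.6 to 15.1 CPM in RCC4 and 0.179 to 0.406 CPM in HepG2.

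Hypoxia was then compared with normoxia within each line, with edgeR and calls at an adjusted p under 0.05 over all genes tested. In HKC-8, 6 of 29 tested chains rose and 1 fell, against a background of 11.2% of all genes called higher and 9.12% called lower. In RCC4, 18 of 26 rose and 2 fell (background 25.9% and 24.2%), and in HepG2, 10 of 27 rose and 1 fell (19.9% and 19.2%). The median log2 fold change of the tested chains was 0.23, 0.39 and 0.33 (HKC-8, RCC4, HepG2), while that of all genes was 0.00 in each line. Of the 21 chains tested in all 3 lines, 1 rose in every line (ITGB5) and 1 fell in every line (ITGAE). Of all 11418 genes so tested, 435 rose and 392 fell in every line. A further chain, ITGB3, was called in opposite directions (4.76% of the chains against 5.97% of all genes). These counts rest on fits without a replicate block. With the block in HKC-8, described below, ITGA3 and ITGAV also rose there (edgeR adjusted p = 0.00583 and 0.012). Both were called higher in RCC4 and HepG2 as well. The chains called lower in any line were ITGAE and ITGB3.

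**Figure D3:**
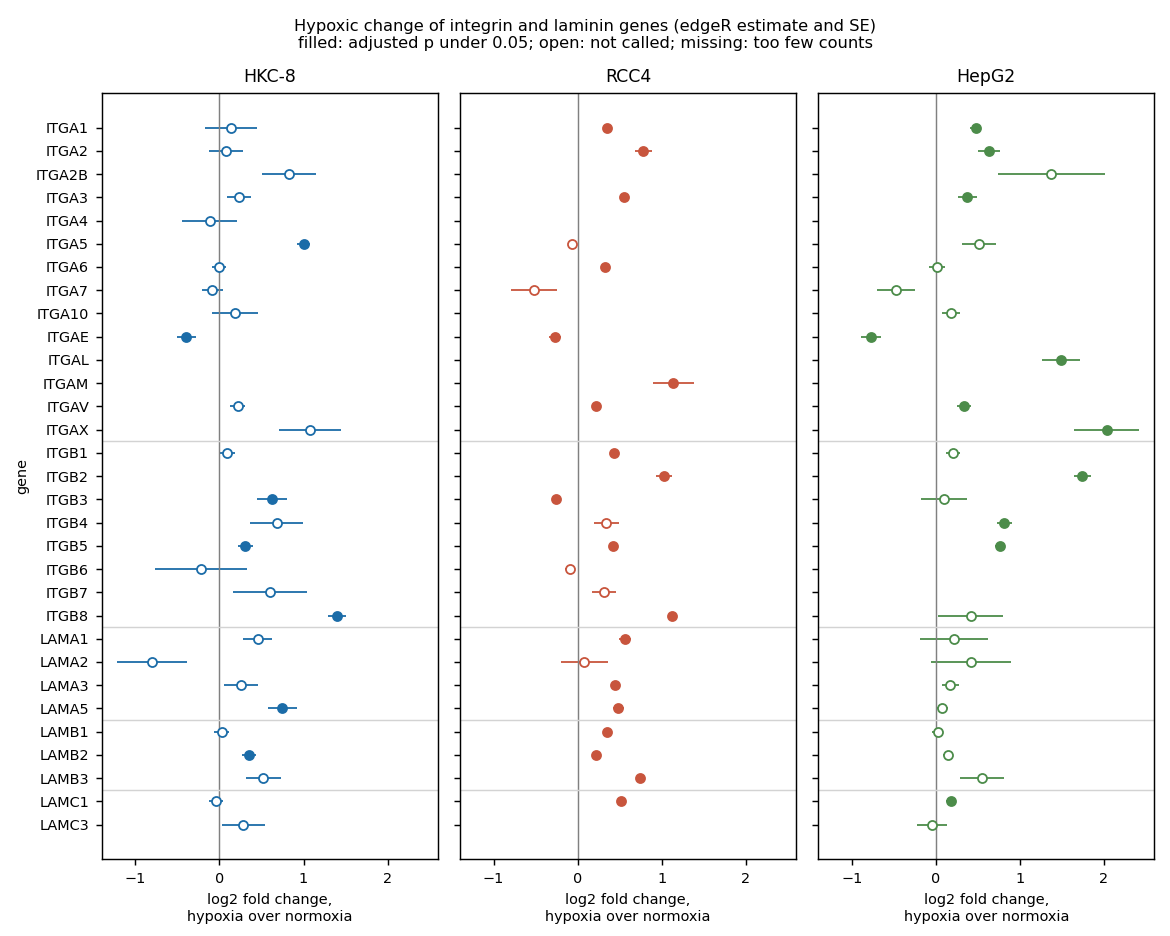
Log2 fold change of hypoxia over normoxia (x axis, edgeR estimate with its SE) for 31 chain genes tested in at least 1 line; filled points passed an adjusted p under 0.05, open points did not, and genes without a point had too few counts in that line. Filled points lie right of zero except for ITGAE in all 3 lines and ITGB3 in RCC4.

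In HKC-8 cells the greatest called rises were those of ITGB8 and ITGA5. ITGB8 stood at 41.0, 38.4 and 46.4 CPM in normoxia and at 115, 96.8 and 119 CPM in hypoxia. All hypoxic samples were above all normoxic ones, and the gene rose 2.64-fold (log2 fold change 1.40 ± 0.11 SE, edgeR adjusted p = 6.68e-05). ITGA5 went from 127, 144 and 137 CPM to 272, 270.3 and 274 CPM, a 2.00-fold rise without overlap (1.00 ± 0.08, edgeR adjusted p = 7.33e-05). Its share of the α pool went from 29.9% ± 1.08 to 43.3% ± 0.910. Its partner ITGB1 was at 1020, 905 and 859 CPM in normoxia and 1052, 937 and 969 CPM in hypoxia, groups that overlapped (0.09 ± 0.09, 95% interval -0.12 to 0.30, edgeR adjusted p = 0.515).

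Smaller rises in HKC-8 were those of LAMA5, LAMB2, ITGB3 and ITGB5. LAMA5, the widely expressed epithelial laminin α chain, was at 123, 97.7 and 73.2 CPM in normoxia and 159, 184 and 149.9 CPM in hypoxia, without overlap (0.75 ± 0.17, edgeR adjusted p = 0.0154). LAMB2, the β chain of mature kidney basement membranes, moved from 105, 102 and 117 CPM to 132, 137 and 145 CPM, again without overlap (0.35 ± 0.08, edgeR adjusted p = 0.0175). LAMC1, the γ chain that joins them, was at 377, 384 and 352 CPM in normoxia and 345, 393 and 343 CPM in hypoxia, with overlapping groups (-0.04 ± 0.08, edgeR adjusted p = 0.781). LAMB1 likewise overlapped, at 262, 292 and 255 CPM and 252, 296 and 274 CPM (0.03 ± 0.09, edgeR adjusted p = 0.865). ITGB3 gave 22.1, 28.5 and 25.6 CPM in normoxia and 42.1, 47.2 and 28.0 CPM in hypoxia, where the lowest hypoxic sample lay just below the highest normoxic one (0.62 ± 0.18, edgeR adjusted p = 0.0404).

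Same-numbered HKC-8 samples deviated together over all genes, and with the replicate number as a block 14 chains rose and 1 fell in place of 6 and 1, against 21% and 21.6% of all genes called higher and lower with the block. The chains added were ITGA2B, ITGA3, ITGAV, ITGAX, ITGB4, LAMA1, LAMB3 and LAMC3, with blocked edgeR adjusted p between 0.00153 (LAMB3) and 0.0428 (ITGAX). ITGB4, for instance, was at 3.03, 1.58 and 3.83 CPM in normoxia and 4.09, 3.42 and 5.995 CPM in hypoxia, higher in each numbered pair (unblocked edgeR adjusted p = 0.162, blocked 0.00397). Without normoxic sample 1, and likewise without hypoxic sample 1, the unblocked count of rises was 3. ITGB3 lost its call without normoxic sample 1 or 3 or hypoxic sample 1 or 2 (edgeR adjusted p up to 0.152). LAMB2 lost it without normoxic sample 1 or 2 or hypoxic sample 3 (edgeR adjusted p up to 0.0894), and LAMA5 without hypoxic sample 1 (0.0534). Those fits had no block. With all 6 samples and the block, the edgeR adjusted p was 0.00318 for ITGB3, 6.85e-04 for LAMB2 and 3.02e-04 for LAMA5.

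The 6 endothelial markers summed to 1.82 to 2.41 CPM in normoxic and 2.81 to 4 CPM in hypoxic HKC-8, without overlap, with 2 of the 6 at 0 counts in each group. Of the 3 tested, VWF (1.91 ± 0.55, edgeR adjusted p = 0.0402) and TEK (2.87 ± 0.64, edgeR adjusted p = 0.0154) rose, both under 1 CPM in every sample. In HepG2 the sums were 1.79 to 2.84 and 2.25 to 3.33 CPM, and in RCC4 0.0596 to 0.158 and 0.12 to 0.31 CPM. Their part in the chain values was not tested.

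In RCC4 cells chains of every class rose, most of them by less than 2-fold. The called rises covered 6 of 9 tested integrin α chains, 4 of 8 β chains, 3 of 4 laminin α chains and all 3 tested laminin β chains. The summed laminin β level was 44.0, 44.1 and 39.5 CPM per kb in normoxia and 61.5, 57.7 and 57.7 in hypoxia, and the summed integrin α level was 147, 147 and 139 in normoxia and 201, 192 and 193 in hypoxia. Neither pair of groups overlapped.

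The greatest RCC4 changes were those of ITGAM, ITGB8 and ITGB2. ITGB8 was at 149, 133 and 149 CPM in normoxia and 313, 288 and 337 CPM in hypoxia, a 2.19-fold rise without overlap (1.13 ± 0.05, edgeR adjusted p = 5.92e-15). Its share of the β pool went from 5.70% ± 0.271 to 10.6% ± 0.543. ITGB3, the leading β chain by exon length, moved the other way, from 467, 450.4 and 464 CPM to 377, 374 and 397 CPM (-0.26 ± 0.03, edgeR adjusted p = 7.72e-07), again without overlap. In a fit of all 18 samples together, which pools the spread of the 3 lines, that decrease was not called (edgeR adjusted p = 0.186), nor were the changes of ITGA1, ITGAE, ITGAM and ITGAV in RCC4 (edgeR adjusted p from 0.0514 to 0.0860). ITGA5, which rose in HKC-8, was at 58.1, 59.4 and 53.7 CPM in normoxia and 55.8, 52.9 and 53.9 CPM in hypoxia in RCC4, with overlap (-0.07 ± 0.05, edgeR adjusted p = 0.233); with library totals in place of TMM it was called lower (-0.15, edgeR adjusted p = 0.0101).

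The chains LAMB3 and LAMA3, which share a trimer, both rose in RCC4. LAMB3 moved from 74.5, 74.4 and 66.0 CPM to 124, 122 and 112 CPM (0.74 ± 0.05, edgeR adjusted p = 8.83e-12), and LAMA3 from 50.2, 49.4 and 51.4 CPM to 73.0, 66.0 and 66.5 CPM (0.45 ± 0.05, edgeR adjusted p = 3.94e-08). For both chains every hypoxic sample exceeded every normoxic one. LAMB3 thereby passed LAMB1 as the leading β chain per kb of exon, at 43.6% ± 1.91 against 34.6% ± 0.778, an order that the longest transcript reverses (27.9% and 56.5%).

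The general laminin chains rose in RCC4 too. LAMC1 went from 371, 371 and 373 CPM to 545, 524 and 526 CPM (0.52 ± 0.03, edgeR adjusted p = 2.70e-12). LAMA5 went from 184, 198 and 207 CPM to 319.7, 255 and 245 CPM (0.48 ± 0.06), and LAMB1 from 306, 307 and 282 CPM to 393, 364 and 379.9 CPM (0.35 ± 0.04). None of these overlapped. LAMB2 went from 79.1, 79.5 and 69.2 CPM to 94.0, 80.8 and 89.8 CPM, with the lowest hypoxic sample barely above the highest normoxic one (0.22 ± 0.05, edgeR adjusted p = 0.00157). Of the receptor chains that bind laminin, ITGA3 rose from 919, 951 and 866 CPM to 1394, 1306 and 1304 CPM (0.55 ± 0.04) and ITGA6 from 99.5, 97.0 and 97.7 CPM to 120.3, 126 and 120.5 CPM (0.32 ± 0.04). Their partner ITGB1 rose from 849, 806 and 846 CPM to 1100, 1115 and 1153 CPM (0.44 ± 0.03, edgeR adjusted p = 8.69e-11), and none of the 3 chains overlapped.

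In HepG2 cells the calls fell mainly on integrins. Called rises covered 6 of 12 tested integrin α chains and 3 of 6 β chains, and 1 of the 9 tested laminin chains. LAMA5, at 314, 295 and 274 CPM in normoxia, was at 317, 321 and 296 CPM in hypoxia, with overlap (0.08 ± 0.07, 95% interval -0.06 to 0.22, edgeR adjusted p = 0.369). LAMB1 gave 346, 340.0 and 382 CPM and 354, 372 and 358 CPM (0.02 ± 0.06, edgeR adjusted p = 0.822), and LAMB2 171, 172 and 159 CPM and 192, 191 and 173 CPM (0.15 ± 0.06, edgeR adjusted p = 0.0895). The called laminin was LAMC1, from 348, 336 and 373 CPM to 386, 414 and 396 CPM, without overlap (0.18 ± 0.06, edgeR adjusted p = 0.0316). It was not called without normoxic sample 1 or 2, nor without any 1 of the hypoxic samples (edgeR adjusted p up to 0.142), nor with library totals in place of TMM (0.09, edgeR adjusted p = 0.284).

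ITGB5 led the abundant HepG2 chains, at 179, 175 and 194 CPM in normoxia and 300.0, 302 and 329 CPM in hypoxia. No samples overlapped and the rise was 1.70-fold (0.76 ± 0.06, edgeR adjusted p = 7.56e-07). ITGB1, at 810.1, 826 and 1018 CPM in normoxia and 974, 1031 and 1055 CPM in hypoxia, overlapped and did not pass the test (0.21 ± 0.08, edgeR adjusted p = 0.0633), although it did without normoxic sample 3 (0.31, edgeR adjusted p = 5.42e-04), with no filter on low counts (0.0434) and by DESeq2 (adjusted p = 0.0331). ITGB4 rose from 14.9, 12.8 and 13.2 CPM to 25.3, 22.4 and 24.4 CPM, without overlap (0.82 ± 0.09, edgeR adjusted p = 9.34e-06). Its α partner ITGA6 was at 226, 220.3 and 287 CPM in normoxia and 228, 249 and 264 CPM in hypoxia (0.01 ± 0.09, edgeR adjusted p = 0.915). Other called α chains were the collagen receptors ITGA2 (0.64 ± 0.13) and ITGA1 (0.47 ± 0.06), ITGAV (0.33 ± 0.08), and ITGA3. The last went from 7.09, 6.71 and 6.06 CPM to 8.83, 8.77 and 8.20 CPM (0.38 ± 0.11, edgeR adjusted p = 0.0144), and its adjusted p was 0.0570 or 0.0514 without hypoxic sample 1 or 2.

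Leukocyte integrin genes gave the greatest fold changes called among the HepG2 chains, at low levels. In HepG2, ITGB2 rose 3.35-fold from 4.92, 5.28 and 5.78 CPM to 18.4, 17.3 and 17.9 CPM (1.74 ± 0.10, edgeR adjusted p = 1.47e-08). ITGAL, its partner in the receptor for ICAM1, rose from 1.88, 1.05 and 0.931 CPM to 3.67, 3.63 and 3.60 CPM (1.49 ± 0.23, edgeR adjusted p = 2.10e-04). ITGAX, the partner in complement receptor 4, rose from 0.113, 0.224 and 0.239 CPM to 0.952, 0.586 and 0.854 CPM (2.03 ± 0.39, edgeR adjusted p = 0.00103), on 25 counts summed over the normoxic samples. None of these genes overlapped between groups.

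In RCC4, ITGB2 went from 8.42, 7.73 and 6.90 CPM to 17.9, 14.8 and 14.3 CPM (1.03 ± 0.10, edgeR adjusted p = 5.71e-09). ITGAM, the α chain of complement receptor 3, went from 0.751, 1.19 and 0.725 CPM to 2.10, 1.86 and 1.93 CPM (1.14 ± 0.25, edgeR adjusted p = 4.88e-04). Neither overlapped. In HKC-8, ITGB2 was at or below 0.256 CPM in every sample. ITGAL had no count in any RCC4 sample and 1 count over the 6 HKC-8 samples. Leukocyte and platelet markers summed to 4.03 to 4.92 CPM in normoxic and 3.36 to 5.66 CPM in hypoxic HepG2, and to 0.0795 to 0.435 CPM and 0.331 to 0.641 CPM in RCC4. PTPRC, CD3E and PF4, defining markers of blood cells, had 0 counts in all HepG2 and RCC4 samples, and 6 of the 10 markers were at 0 in each HepG2 group and 7 in each RCC4 group. At or above 1 CPM were 2 of the 10 in normoxic and 1 in hypoxic HepG2, and none in RCC4. LAPTM5 was at 2.45, 3.04 and 2.75 CPM in normoxic and 2.38, 2.87 and 3.67 CPM in hypoxic HepG2 (0.11 ± 0.19, edgeR adjusted p = 0.679), and CD14 fell there from 1.34, 1.66 and 1.43 CPM to 0.548, 0.825 and 1.11 CPM (-0.84 ± 0.27, edgeR adjusted p = 0.0253). The part of such cells in these integrin values was not tested.

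**Figure D4:**
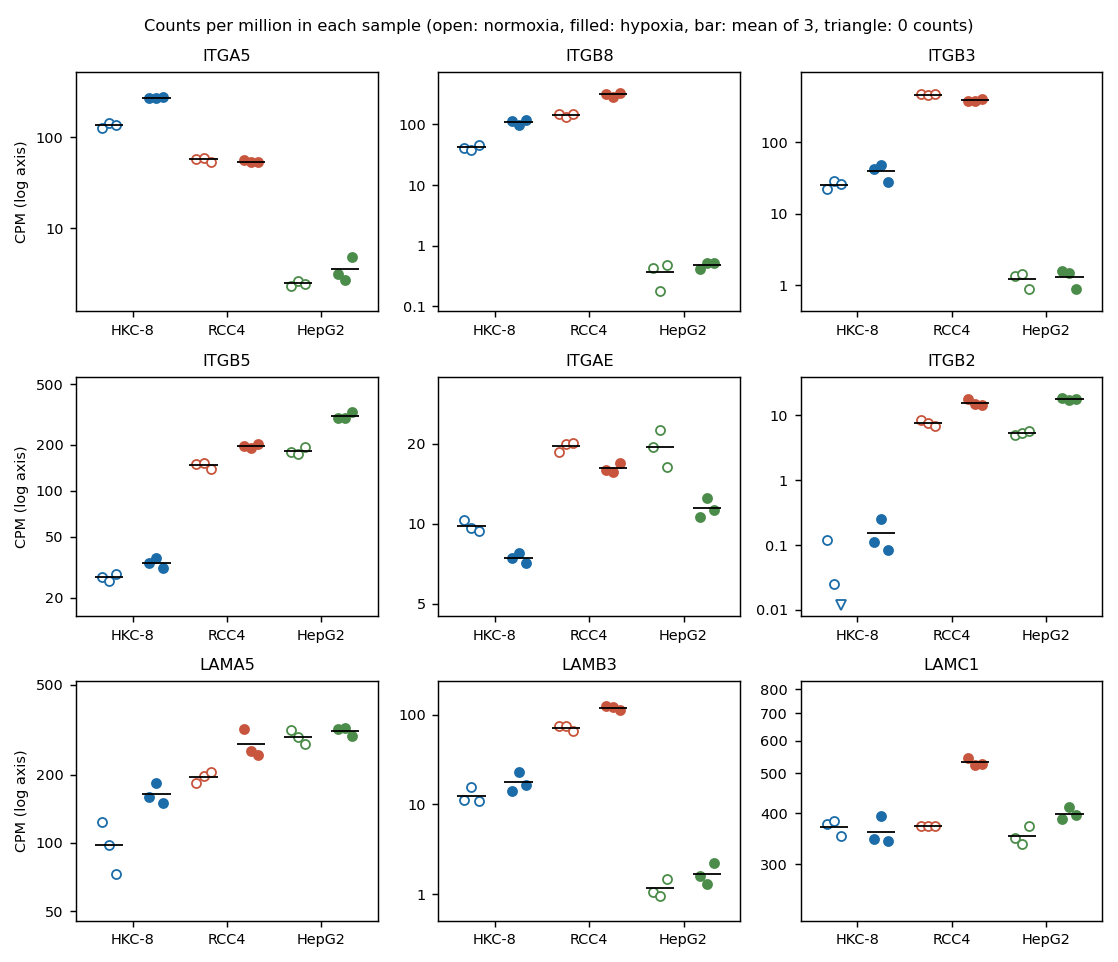
CPM (log axis, scaled separately for each gene) of 9 chains in each sample, normoxia open and hypoxia filled, with bars for the mean of 3 samples and triangles for 0 counts. ITGB8 separates by condition in HKC-8 and RCC4, ITGB2 in RCC4 and HepG2, and ITGB5 and ITGAE in all 3 lines.

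ITGB5 and ITGAE were called in the same direction in all 3 lines. ITGB5, the partner of ITGAV in a vitronectin receptor, rose in HKC-8 from 27.5, 25.8 and 28.6 CPM to 33.7, 36.4 and 31.1 CPM (0.31 ± 0.09, edgeR adjusted p = 0.0455) and in RCC4 from 150.4, 153 and 139 CPM to 197, 192 and 202 CPM (0.42 ± 0.04, edgeR adjusted p = 3.22e-09), beside the HepG2 rise above. ITGAE, the α chain that pairs with ITGB7 to bind E-cadherin, fell in HKC-8 from 10.4, 9.63 and 9.41 CPM to 7.42, 7.77 and 7.13 CPM (-0.39 ± 0.11, edgeR adjusted p = 0.0407). In RCC4 it fell from 18.7, 20.0 and 20.2 CPM to 16.0, 15.7 and 17.0 CPM (-0.27 ± 0.07, edgeR adjusted p = 0.00174), and in HepG2 from 19.5, 22.5 and 16.4 CPM to 10.6, 12.5 and 11.2 CPM (-0.77 ± 0.12, edgeR adjusted p = 2.08e-04). In every line and for both genes the groups did not overlap.

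The HKC-8 calls of ITGB5 and ITGAE were near the threshold in the fit without a block. With the replicate block their edgeR adjusted p was 0.01 and 0.00883. The losses that follow are from unblocked fits. ITGB5 lost its call without normoxic sample 1 or 2 or hypoxic sample 1 or 2 (edgeR adjusted p up to 0.162), and ITGAE without any 1 sample except normoxic sample 3 (edgeR adjusted p up to 0.153). Both also missed the threshold with library totals alone (edgeR adjusted p = 0.0629 for ITGB5 and 0.0594 for ITGAE) and with no filter on low counts (0.0573 and 0.0541). ITGB7, the partner of ITGAE, was at 3.11 to 5.57 CPM in RCC4 and at most 0.552 CPM in the other lines. Of its exon bases 42.3% overlap ZNF740 on the other strand, and the strand setting of the counting is not given in the sources used here. For ITGAE that overlap was 6.47%, with HASPIN.

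The responses of HKC-8 and HepG2, whose labels give the same oxygen level and duration, were compared by the interaction of line and oxygen. Of 30 tested chains, the response of 1 was called higher in HKC-8 and that of 1 lower, against 4.28% and 5.02% of all genes. LAMA5 changed by 0.75 in HKC-8 and 0.08 in HepG2 on the log2 scale, a difference of 0.67 ± 0.20 (edgeR adjusted p = 0.0454). That call was lost in 9 of the 12 fits that left out 1 sample, with the difference between 0.52 and 0.87 and the edgeR adjusted p up to 0.105. It held without HKC-8 normoxic sample 1 or 3 and without HKC-8 hypoxic sample 3. With the replicate block in the fit of all 12 samples it was called too (0.69, edgeR adjusted p = 0.00225).

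ITGB5 rose by 0.31 in HKC-8 and 0.76 in HepG2, a difference of -0.46 ± 0.11 (edgeR adjusted p = 0.0150), which was called without any 1 sample but not with library totals (-0.36, edgeR adjusted p = 0.0586). The ITGB8 difference was 0.98 (95% interval 0.25 to 1.71, edgeR adjusted p = 0.0901) and the ITGA5 difference 0.49 (0.06 to 0.92, edgeR adjusted p = 0.149) without the replicate block. With the block both were called higher in HKC-8 (edgeR adjusted p = 0.0408 for ITGB8 and 0.0438 for ITGA5). ITGB5 stayed lower with it (edgeR adjusted p = 0.00359), and ITGA2 was called lower as well (-0.58, edgeR adjusted p = 0.0147). Of all genes, 9.06% were called higher and 11% lower in that fit. Same-numbered HepG2 samples correlated at 0.231, 0.0546 and 0.226, against at most 0.0535 for differently numbered ones, so their pairing is less certain than in HKC-8. In HepG2 ITGB8 stood at 0.431, 0.179 and 0.477 CPM in normoxia and 0.405, 0.521 and 0.517 CPM in hypoxia, with overlap. ITGA5 stood at 2.33, 2.66 and 2.48 CPM and 3.17, 2.74 and 4.84 CPM there, without overlap (0.51 ± 0.21, edgeR adjusted p = 0.0652). That hypoxic rise of ITGA5 within HepG2 was called with no filter on low counts (edgeR adjusted p = 0.0440) and with the replicate block (0.0428). It was also called in 1 fit of all 18 samples (0.0141) and without HepG2 hypoxic sample 2 (0.0289).

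Genes that work with these chains were described from lists by their counts, to be read against the shares of all genes called higher and lower, which were 11.2% and 9.12% in HKC-8, 25.9% and 24.2% in RCC4, and 19.9% and 19.2% in HepG2. Of the integrin adaptors, cytoplasmic proteins that join β tails to actin, 5 of 29 tested rose and 2 fell in HKC-8, 13 of 27 rose and 3 fell in RCC4, and 16 of 28 rose and 2 fell in HepG2. TNS1, a tensin of adhesion sites, rose in HepG2 from 4.17, 4.23 and 3.84 CPM to 127, 119 and 128 CPM (4.93 ± 0.08, edgeR adjusted p = 8.00e-14). It fell in RCC4 (-0.38 ± 0.05, edgeR adjusted p = 4.68e-07), and its HKC-8 value was 0.00 ± 0.10. In HKC-8 the adaptors with the largest called changes were PTK2B, a relative of focal adhesion kinase (-0.84 ± 0.14), and LIMS2, a partner of integrin-linked kinase (0.74 ± 0.14).

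Membrane partners such as tetraspanins rose in 8 of 11 cases in RCC4, with 2 falling, and in 1 of 11 in each of HKC-8 and HepG2. The RCC4 calls were led by CAV1 (0.86 ± 0.03), CD44 (0.66 ± 0.03) and CD9 (0.56 ± 0.06), and the single calls were SLC3A2 in HKC-8 (0.70 ± 0.10) and BSG in HepG2 (0.33 ± 0.06). Non-integrin laminin receptors gave 1 rise in HKC-8, 4 rises and 2 falls in RCC4, and 2 rises and 1 fall in HepG2, of 8 tested each. SDC4, a syndecan, rose in HKC-8 (0.39 ± 0.09) and HepG2 (0.42 ± 0.08) and fell in RCC4 (-0.57 ± 0.04).

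Other basement membrane genes gave 3 rises and 1 fall of 15 in HKC-8, 5 and 2 of 14 in RCC4, and 5 and 1 of 13 in HepG2. Among them AGRN, a heparan sulfate proteoglycan that binds laminin, rose in RCC4 (0.57 ± 0.05) and HepG2 (0.93 ± 0.06), COL4A4, a collagen IV chain, rose in HKC-8 (0.58 ± 0.16) and RCC4 (0.83 ± 0.08), and NTN4, a laminin-related netrin, fell in HepG2 (-0.98 ± 0.09). Of the ligands of RGD-binding and leukocyte integrins, 2 of 12 rose in HKC-8, 7 of 12 rose and 2 fell in RCC4, and 7 of 16 rose and 4 fell in HepG2. TGFBI, a matrix protein bound by several integrins, rose in all 3 lines (0.82 ± 0.08, 0.46 ± 0.03 and 0.69 ± 0.06), and FGG, the fibrinogen γ chain, fell in HepG2 (-1.02 ± 0.13).

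Latent TGF-β is a ligand of the ITGB6 and ITGB8 receptors. Genes of TGF-β and of proteins that bind its latent form gave 3 rises of 8 in HKC-8 and 3 of 7 in HepG2. In RCC4 they gave 2 rises and 1 fall of 6. LTBP3, a latent TGF-β binding protein, rose in all 3 lines (0.46 ± 0.11, 0.40 ± 0.06 and 0.33 ± 0.08), while TGFB1 rose in HKC-8 (0.49 ± 0.11) and HepG2 (0.75 ± 0.08) and fell in RCC4 (-0.23 ± 0.04). Of the hemidesmosome genes other than the chains, all 3 tested rose in RCC4, led by DST (0.98 ± 0.09), and PLEC, a plakin, was the 1 call of 3 in HepG2 (0.46 ± 0.06). In HKC-8 DST was at -0.01 ± 0.13 and PLEC at 0.00 ± 0.23, neither called.

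Several chains share exon bases with other genes annotated by GENCODE, which can make their counts less certain. Whether those genes were in the UCSC annotation used for counting was not checked. Of ITGB3 exon bases, 33.2% lie in another protein-coding gene on the same strand. For ITGA4, 26.4% overlap CERKL on the other strand, and for ITGB6, 16.7% overlap a gene of another type on the same strand. For LAMA5, ITGB8 and ITGA5 the largest overlap with 1 gene was 1.71%, 0.871% and 0.650%.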

How the data were processed

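Reads from ScriptSeq polyA+ libraries were, per the authors' methods, trimmed with Trim Galore 0.3.3, aligned to GRCh37 with TopHat 2.0.8b and Bowtie 1.0.0, cleared of non-uniquely mapped fragments with SAMtools 0.1.19 and counted per UCSC gene with HTSeq 0.5.4p3 in intersection-strict mode. The deposited values were these raw counts for 23106 genes, not normalized by the authors. Uniquely mapped reads only were kept, so genes with near-identical copies can be undercounted.

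Counts were analysed in R 4.3.3 with edgeR 4.0.16 (filterByExpr, TMM, quasi-likelihood test, Benjamini-Hochberg over all genes tested, threshold 0.05), within each line on its 6 samples, as an interaction on 12 samples, and on the 9 normoxic samples, where at least 2-fold was also required. Per-kb levels used the exon union of GENCODE genes on GRCh37, with the longest transcript as alternative. Samples were grouped by their titles. Replicate pairs differed beyond counting noise (chi-square per degree of freedom of the most alike pair in each group from 4.57 to 33.6). Deviations of same-numbered samples correlated at 0.176, 0.631 and 0.577 in HKC-8, every one above 0.1, so the numbers, which come from the titles, were taken to pair those samples. The highest correlation between differently numbered HKC-8 samples was 0.154, so the pairing of the samples numbered 1 (0.176) is less certain. On simulated counts, 91% (HKC-8), 99% (RCC4) and 94.4% (HepG2) of the tested genes among 200 changed by 1.5 on the log2 scale were recovered. Of the genes called in those fits, 8.08%, 10.1% and 6.03% were unchanged ones, above the 5% aimed at. The interaction recovered 81.3% (8% of calls unchanged), and HepG2 over RCC4 93.8% (1.1%). Smaller changes were not simulated.

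The chain genes and gene lists were chosen with earlier results of these data known. Values in each sample were given for chains called at a log2 change of at least 1, called in opposite directions or the same way in all 3 lines, or leading their class per kb in normoxia, and for others that bear on them. Of each list, genes were named among the 3 called genes with the largest change per line; genes named beyond that were chosen after their values were seen. Alternatives were library totals alone, DESeq2 1.42.0, other low-count filters (none, or at least 10 counts in every sample), a replicate block, 1 fit of all 18 samples and leaving out each sample. Results for 2 of the genes counted are not reported here by name.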

Additional observations from a re-analysis of the deposited data

Results flagged for a closer look

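The interaction test found a different hypoxic response in HKC-8 and HepG2 for ITGB5 and LAMA5. That was 3.33% of the 30 tested chains in each direction, against 4.28% of all genes called higher in HKC-8 and 5.02% lower. For ITGB5 the log2 fold change in HKC-8 minus that in HepG2 was -0.458, with a rise called in each line and no overlap between normoxic and hypoxic samples in either (edgeR adjusted p = 0.0150). For LAMA5 the difference was 0.666 (edgeR adjusted p = 0.0454), with all 3 hypoxic HKC-8 samples above the normoxic ones and overlapping groups in HepG2. The LAMA5 difference lost its call in 9 of 12 fits without 1 sample, with edgeR adjusted p up to 0.105. With the replicate block both differences were called (edgeR adjusted p = 0.00225 for LAMA5 and 0.00359 for ITGB5).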

How the results depend on the processing

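Of 40 called chain responses, 26 were called under every alternative that gave a value (ITGAX in HepG2 was not tested with at least 10 counts in every sample), 14 were lost under at least 1, and none changed sign. In HKC-8 the count of rises, 6, became 14 with the replicate block and 10 in 1 fit of all 18 samples, and ranged from 3 to 6 without 1 sample. The count of falls there, 1, became 0 with library totals and 0 with no filter on low counts (both ITGAE), and ranged from 0 to 1. In RCC4 the 2 falls became 4 with library totals and 0 in 1 fit of all 18 samples, where the 1 fall in HepG2 became 2. The cause was not tested. In the interaction, 1 higher and 1 lower became 3 and 2 with the replicate block. The higher count was 2 by DESeq2 and 0 to 2 without 1 sample. The lower count was 0 with library totals and 1 to 2 without 1 sample. The block gave 13 rises in place of 10 in HepG2 and left 18 in RCC4. With it 2951 of 13623 genes were called higher in HepG2 and 3351 of 12811 in RCC4. Same-numbered samples correlated at 0.231, 0.0546 and 0.226 in HepG2 and at -0.00647, 0.0239 and 0.0325 in RCC4. Not every pair was above 0.1 in either line, so whether the numbers pair samples there was not settled. Requiring at least 10 counts in every sample, which tests fewer genes, left 9 higher and 2 lower chains in RCC4 over HKC-8, 5 lower in HepG2 over HKC-8, and 4 higher and 5 lower in HepG2 over RCC4. Shares of all genes were computed only for the main and blocked fits, so counts from the other fits have no background beside them. By the longest transcript the normoxic shares were 31.3% (ITGA6), 77.7% (ITGB1), 97.2% (LAMA5), 35.7% (LAMB2) and 99.2% (LAMC1) in HepG2, 25.1% (ITGA5), 91.3% (ITGB1) and 30.7% (LAMB2) in HKC-8, and 27.0% (ITGB3), 73.4% (LAMA5), 59.7% (LAMB1) and 74.0% (LAMC1) in RCC4. Uncalled values near zero changed sign. ITGA6 in HKC-8 was 0.0049 with library totals, 0.0077 with at least 10 counts and -0.064 to 0.038 without 1 sample, and LAMB1 there was -0.031 to 0.087. In HepG2, library totals gave -0.078 for ITGA6, -0.014 for LAMA5 and -0.072 for LAMB1, and leaving out 1 sample gave -0.044 to 0.14 for ITGA6, -0.094 to 0.31 for ITGB3 and -0.0043 to 0.068 for LAMB1. In HepG2, ITGB1, ITGA5 and LAMB2 missed the threshold but passed it with the block (edgeR adjusted p = 0.0120, 0.0428 and 0.0426). Chains under about 1 CPM, such as ITGAX, rest on few counts, and a chain at 0 counts was not detectable rather than absent.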
